A study of Mus musculus with 4 samples.

Results

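The BCL2 family genes that set the threshold for mitochondrial cell death were followed in mouse bone marrow leukaemic cells. The members are 10 genes chosen by symbol, of 22072 symbols in the deposited transcript tables. Bcl2, Bcl2l1 and Mcl1 are anti-apoptotic, Bax and Bak1 are the effectors, and Bid, Bad, Bik, Bmf and Bcl2l11 are BH3-only genes. They had 13 transcript rows, of which Bcl2l11 had 3, Bcl2 had 2 and each of the others 1. Of the 10 genes, 9 reached 1 FPKM in at least 1 library and Bik did not. FPKM is the number of fragments per kilobase of transcript and per mega mapped fragments, so levels of different genes can be set side by side.

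All cells carried the MLL-AF9 knock-in on 1 allele (MLL-AF9-/+), a fusion that drives acute myeloid leukaemia, on the C57BL/6 background. The groups were Meis1f/f cells given 4-hydroxytamoxifen (4-OHT), Meis1f/f cells given vehicle, control cells given 4-OHT and control cells given vehicle, with 1 library each. Meis1f/f cells had the genotype Meis1f/fCreER+/- MLL-AF9-/+, with floxed Meis1 alleles and a recombinase that tamoxifen switches on. Control cells had MLL-AF9-/+ alone and no CreER per the labels, so the effects of the active recombinase and of Meis1 loss cannot be told apart. The dose of 4-OHT was 1000 nM for 24 h, and the medium held SCF, IL-6, IL-3 and GM-CSF, each at 10 ng/ml. The sources differ on serum, with 20% under growth conditions and 10% under the overall design. They do not state the age of the mice, the number of animals or the promoter of CreER. With 1 library per group no difference has a replicate check, no test was run, and the intervals given below cover counting error only.

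BCL2 family proteins decide whether the outer mitochondrial membrane is opened. BAX and BAK form the pores, BCL-2, BCL-XL (Bcl2l1) and MCL-1 hold them in check, and BH3-only proteins bind the guardians or the effectors and so favour death. MCL-1 is a short-lived protein on which myeloid progenitors and many acute myeloid leukaemias depend, and BCL-2 is a drug target in that disease.

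What the 3 classes share is the BH3 segment, a helix that starts its core with leucine and ends it with aspartate. It is shown here because all 10 members hold it, whatever their role. Each coding sequence in the GENCODE annotation of GRCm38 held exactly 1 match to a core of leucine, any 3 residues, then glycine, alanine or serine, then aspartate. The lines give 45 coding bases, 5′ to 3′, with the 18 bases of the 6 core codons in capitals. The anti-apoptotic members come first.
Bcl2 (chr1:106712569-106712613, minus strand): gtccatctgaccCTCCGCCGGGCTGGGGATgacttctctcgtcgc
Bcl2l1 (chr2:152829691-152829735, minus strand): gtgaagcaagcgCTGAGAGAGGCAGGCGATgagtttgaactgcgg
Mcl1 (chr3:95659424-95659468, plus strand): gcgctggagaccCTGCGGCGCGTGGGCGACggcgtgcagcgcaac
The effectors follow.
Bax (chr7:45465991-45466035, minus strand): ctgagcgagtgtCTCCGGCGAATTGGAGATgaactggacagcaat
Bak1 (chr17:27022525-27022569, minus strand): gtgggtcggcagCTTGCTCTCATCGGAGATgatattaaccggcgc
The BH3-only members close the set.
Bid (chr6:120897283-120897327, minus strand): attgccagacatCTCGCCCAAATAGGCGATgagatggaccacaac
Bad (chr19:6950780-6950824, plus strand): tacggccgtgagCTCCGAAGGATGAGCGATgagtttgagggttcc
Bik (chr15:83543072-83543116, plus strand): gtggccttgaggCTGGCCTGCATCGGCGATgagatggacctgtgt
Bmf (chr2:118545094-118545138, minus strand): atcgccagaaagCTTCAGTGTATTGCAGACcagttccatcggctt
Bcl2l11 (chr2:128147138-128147182, plus strand): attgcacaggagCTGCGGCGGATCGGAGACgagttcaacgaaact
The fifth core codon was for glycine in 8 members, serine in Bad and alanine in Bmf. The core of Mcl1 and that of Bcl2l11, members of opposite role, were identical at 14 of 18 bases, and those of Bcl2 and Bax at 13 of 18. Bcl2l1 and Bmf were identical at 5 of 18.

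Some features of the libraries bear on these genes. Estimated depth ran from 18.4 to 43.1 M mapped reads, with the Meis1f/f vehicle library the deepest. The sheet names place that library in lane 1 and the other 3 in lane 2, so its lane and its group cannot be told apart. By its highest row Meis1 was at 7.38 FPKM in the Meis1f/f 4-OHT library, against 11.8 FPKM in Meis1f/f vehicle. In control cells it was at 12.1 FPKM with 4-OHT, against 11.6 FPKM with vehicle. With rows summed Meis1 was at 8.08 FPKM in Meis1f/f 4-OHT and 15.5 FPKM in Meis1f/f vehicle. The sums were 13.2 FPKM in control 4-OHT and 13.8 FPKM in control vehicle. All 10 early granulocyte and monocyte markers reached 1 FPKM in each library, with Mpo, the myeloperoxidase gene, between 710 and 1280 FPKM. The B cell genes Ms4a1, Pax5 and Ebf1 and the T cell genes Cd3e and Cd4 were at 0 in all 4, but 1 gene of each list passed 1 FPKM. Cd3g was at 2.41 and 2.11 FPKM in Meis1f/f 4-OHT and vehicle cells, against 0.273 FPKM in control 4-OHT cells and 0 in control vehicle cells. Cd79b was at 1.34 and 1.35 FPKM in Meis1f/f 4-OHT and vehicle cells, against 4.95 and 5.37 FPKM in control 4-OHT and vehicle cells. Mast cell and basophil markers (7 genes) summed to 1989 and 2505 FPKM in Meis1f/f 4-OHT and vehicle cells, against 236 and 253 FPKM in control 4-OHT and vehicle cells. All 7 differed by more than 1 (log2) between the genotypes under either treatment. Of 5 erythroid markers over 1 FPKM, 4 were likewise higher in Meis1f/f cells by more than 1, and Tfrc was not. Among them, Gata1 was at 12.3 and 19.8 FPKM in Meis1f/f 4-OHT and vehicle cells. In control 4-OHT and vehicle cells Gata1 was at 2.24 and 2.82 FPKM. The part of these markers in the genotype differences below was not tested. In such bulk samples fewer cells of a type and less RNA per cell cannot be told apart.

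Mcl1, Bax and Bak1 were the highest in each library, between 54.9 and 123 FPKM. Bid came next in 3 libraries, while in Meis1f/f vehicle cells Bcl2l1 was above it. Bcl2, Bcl2l11 and Bmf lay between 1.54 and 8.35 FPKM. Bik, an endoplasmic reticulum BH3-only gene, was at 0.117 FPKM in Meis1f/f 4-OHT and 0.125 FPKM in Meis1f/f vehicle, against 0.0976 FPKM in control 4-OHT and 0.0375 FPKM in control vehicle. These rest on an estimated 1.01 to 5.10 reads per library, so no difference of Bik was detectable at this depth.

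**Figure D1:**
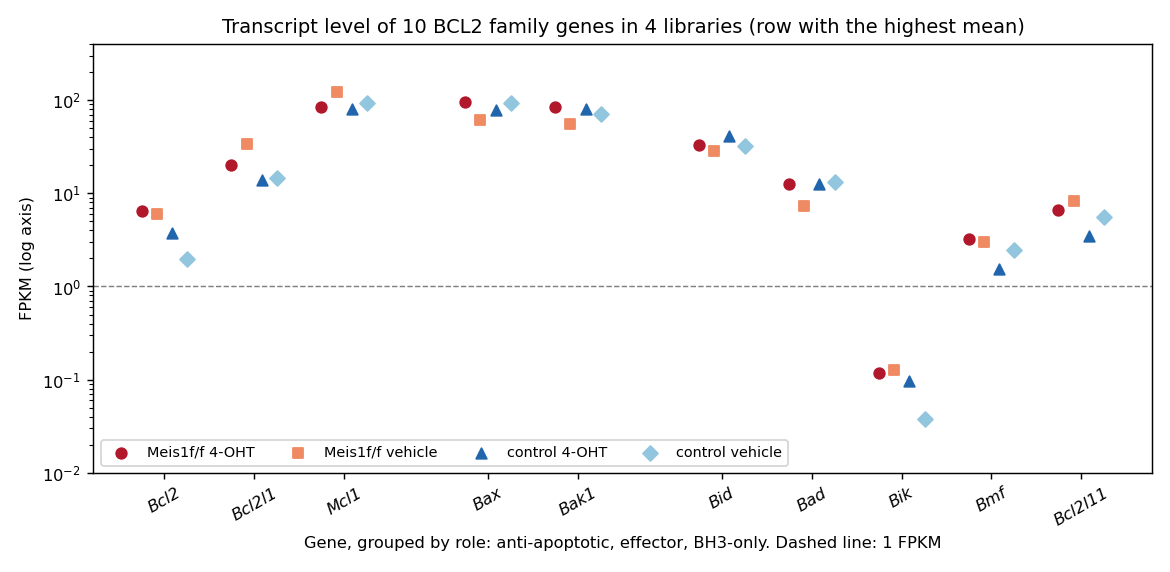
Level of each of the 10 genes (FPKM, log axis) in the Meis1f/f 4-OHT, Meis1f/f vehicle, control 4-OHT and control vehicle libraries, 1 point per library, grouped by role. Mcl1, Bax and Bak1 sit between 54.9 and 123 FPKM, and Bik lies under the dashed line at 1 FPKM in every library.

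Among the anti-apoptotic genes, Bcl2l1 and Mcl1 were highest in the Meis1f/f vehicle library, and 4-OHT went with lower levels of both in Meis1f/f cells. Mcl1 (chromosome 3, 95462642 to 95467101 in the deposited coordinates, whose build the sources leave unsettled) was at 85.0 FPKM in Meis1f/f 4-OHT cells and 123 FPKM in Meis1f/f vehicle cells. In control cells it was at 80.6 FPKM with 4-OHT and 93.8 FPKM with vehicle. Mcl1 was thus lower with 4-OHT in both genotypes, at a ratio of 0.689 (exact 95% interval for counting error, 0.669 to 0.710) in Meis1f/f and 0.860 (0.833 to 0.888) in control cells. The difference of these effects was -0.32 on the log2(FPKM + 1) scale, the scale of every log2 difference below.

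Bcl2l1 (chromosome 2, 152606403 to 152657418) was at 20.1 FPKM in Meis1f/f 4-OHT cells and 33.6 FPKM in Meis1f/f vehicle cells, against 13.9 FPKM in control 4-OHT cells and 14.5 FPKM in control vehicle cells. Both Meis1f/f libraries were above both control libraries. With 4-OHT the ratio was 0.599 in Meis1f/f cells (0.555 to 0.645), while in control cells it was 0.961 with an interval that includes 1 (0.872 to 1.06). The genotype ratio was 1.44 under 4-OHT (1.31 to 1.60) and 2.32 under vehicle (2.16 to 2.49). Of the log2 differences of all 10922 genes between the vehicle libraries, 95.6% were below that of Bcl2l1, 1.16.

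The promoter windows of the members were searched for motifs of binding sites. The letters TGACAG, the core of MEIS binding sites, searched on both strands, occur in 19.2% of 32851 windows of 300 bases in the RefSeq table for GRCm38.p6, and in 2 of the 15 windows of the 9 members that have any. By gene, 2 of 9 members held a match, beside 21.6% of 27025 symbols. The matches lie in a window of Bad and a window of Bcl2l1, which has 3. On GRCm38 that Bcl2l1 window lies inside the gene, past the BH3 codons in the direction of transcription, and the Bcl2l1 windows upstream of those codons held no match. Neither TTACNTAA (PAR bZIP factors, such as HLF) nor TTCNNNGAA (STAT factors) was found in any member window, against 2.32% and 8.30% of all windows. With only 15 windows, shares this low cannot show that the members lack these motifs more than other genes. A match is a run of letters and does not show binding.

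Bcl2 was the lowest of the 3 anti-apoptotic members. By the highest row it had the widest range of the 9, 1.33 on the log2 scale, but with rows summed its range was 0.83, below 1.35 for Bcl2l11 and 1.21 for Bcl2l1. Its main row (chromosome 1, 108434755 to 108610867) was at 6.49 FPKM in Meis1f/f 4-OHT and 6.06 FPKM in Meis1f/f vehicle cells, against 3.73 FPKM in control 4-OHT and 1.98 FPKM in control vehicle cells. In Meis1f/f cells the 4-OHT ratio was 1.07, with an interval that includes 1 (0.988 to 1.16), and the log2 difference turned from 0.09 to -0.03 under median ratio rescaling. In control cells the ratio was 1.88 (1.66 to 2.14). This second value depends on how fragments were split between rows. The short row of 2518 bases, which GENCODE pairs with a protein of 199 residues in place of 236, held 41.8% of the Bcl2 FPKM in control vehicle cells and between 4.96% and 6.92% in the other 3 libraries. Summed over rows, Bcl2 was at 6.83 FPKM in Meis1f/f 4-OHT and 6.51 FPKM in Meis1f/f vehicle cells, and at 3.97 FPKM in control 4-OHT and 3.40 FPKM in control vehicle cells. The control difference was then 0.17, and the genotype difference under vehicle 0.77. Counted as mapped reads per M over both rows, which do not depend on the split, Bcl2 was at 47.6 in Meis1f/f 4-OHT, 44.8 in Meis1f/f vehicle, 27.5 in control 4-OHT and 17.9 in control vehicle cells. On that measure the 4-OHT ratio in control cells was 1.54 (1.37 to 1.73) and the genotype ratio under vehicle 2.51 (2.27 to 2.77). Both Meis1f/f libraries were above both control libraries by each of the 3 measures.

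The sum of dendritic cell markers had the same order over the libraries as the main Bcl2 row. The 7 genes, all above 0 in each library, summed to 612 FPKM in Meis1f/f 4-OHT, 486 in Meis1f/f vehicle, 343 in control 4-OHT and 234 in control vehicle cells, and their part in the Bcl2 levels was not tested. Cd74, H2-Aa, H2-Ab1 and Itgax had that order and Ccr7, Ciita and Flt3 did not; Ccr7 was at 28.02 FPKM in Meis1f/f 4-OHT and 6.33 FPKM in Meis1f/f vehicle cells, against 1.74 FPKM in control 4-OHT and 2.30 FPKM in control vehicle cells.

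Among the 3 anti-apoptotic members, leaving out the other anti-apoptotic genes given further below, Mcl1 supplied most of the transcript in every library. Its share of the FPKM of the 3 genes was 76.2% in Meis1f/f 4-OHT and 75.7% in Meis1f/f vehicle cells, against 82.1% in control 4-OHT and 85.1% in control vehicle cells. The share of Bcl2l1 was 18.005% and 20.6% in Meis1f/f 4-OHT and vehicle cells, and 14.1% and 13.1% in control 4-OHT and vehicle cells. Mcl1 exceeded Bcl2l1 by a factor of 4.23 and 3.67 in Meis1f/f 4-OHT and vehicle cells, and by 5.80 and 6.48 in control 4-OHT and vehicle cells.

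The effector genes were lowest in the Meis1f/f vehicle library, and in Meis1f/f cells 4-OHT went with higher levels of both. Bax was at 96.4 FPKM in Meis1f/f 4-OHT and 61.7 FPKM in Meis1f/f vehicle cells, against 77.6 FPKM in control 4-OHT and 91.9 FPKM in control vehicle cells. The effects ran in opposite directions, with a 4-OHT ratio of 1.56 in Meis1f/f cells (1.46 to 1.67) and 0.844 in control cells (0.790 to 0.901). The difference of the effects, 0.88, was the largest in size among the 9 members by the highest row. With the median of genes of like length taken out it was 0.66, and Bcl2l1, at -0.75, was then the largest in size. Bak1 was at 84.5 FPKM in Meis1f/f 4-OHT and 54.9 FPKM in Meis1f/f vehicle cells, against 80.8 FPKM in control 4-OHT and 70.4 FPKM in control vehicle cells. For Bak1 the ratio was above 1 in both genotypes, at 1.54 in Meis1f/f cells (1.47 to 1.61) and 1.15 in control cells (1.10 to 1.20). Under 4-OHT the genotype ratio of Bak1 was 1.05, with an interval that includes 1 (0.997 to 1.10). That of Bax was 1.24 (1.16 to 1.33).

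Set against each other, the anti-apoptotic and effector sums of the members alone put 1 library apart. The 4 other anti-apoptotic genes over 1 FPKM, given further below, are outside these sums. All 4 were higher in Meis1f/f 4-OHT than in Meis1f/f vehicle cells. Of these, Bcl2a1a, Bcl2a1b and Bcl2a1d were at 26.4 to 43.2 FPKM in Meis1f/f cells and at 13.6 to 28.4 FPKM in control cells. Such levels are not small beside the sums and would change the ratios. The ratios given here are of the members only, and ratios with the other genes included were not computed. The ratio of the summed anti-apoptotic FPKM to the summed effector FPKM was 0.617 in Meis1f/f 4-OHT and 1.40 in Meis1f/f vehicle cells, against 0.621 in control 4-OHT and 0.679 in control vehicle cells. In the Meis1f/f vehicle library the anti-apoptotic sum was higher (163 FPKM, against 98.3 to 112 in the other 3) and the effector sum lower (117 FPKM, against 158 to 181). The summed level of 10 granulocyte and monocyte markers was likewise lowest in that library, at 5326 FPKM in Meis1f/f 4-OHT and 3680 FPKM in Meis1f/f vehicle cells, against 6158 FPKM in control 4-OHT and 5291 FPKM in control vehicle cells, and its part was not tested. Mpo, Elane, Prtn3, Ctsg and Ly6c1 were lowest there, while Itgam, Csf1r and Fcgr3 were highest there, Itgam at 46.7 FPKM in Meis1f/f 4-OHT and 63.03 FPKM in Meis1f/f vehicle cells, against 45.1 FPKM in control 4-OHT and 32.5 FPKM in control vehicle cells.

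The BH3-only genes did not share a direction. Bid links death receptors to mitochondria once caspase-8 has cut it. It made up between 59.6% and 69.8% of the FPKM of the 5 BH3-only members by the highest row. With rows summed its share ran from 50.9% to 67.0%. Pmaip1, a BH3-only gene outside these 5 given further below, was above Bid in both vehicle libraries and below it in both 4-OHT libraries. Bid was at 33.1 FPKM in Meis1f/f 4-OHT and 28.1 FPKM in Meis1f/f vehicle cells, against 40.9 FPKM in control 4-OHT and 32.1 FPKM in control vehicle cells. Bid was higher with 4-OHT in both genotypes, at ratios of 1.18 (1.10 to 1.26) in Meis1f/f cells and 1.28 (1.19 to 1.37) in control cells. Bad, which survival kinases hold inactive by phosphorylation, was at 12.5 FPKM in Meis1f/f 4-OHT and 7.31 FPKM in Meis1f/f vehicle cells, against 12.6 FPKM in control 4-OHT and 13.3 FPKM in control vehicle cells. The Meis1f/f vehicle library alone was low, with a 4-OHT ratio of 1.72 in Meis1f/f cells (1.49 to 1.98) and 0.945 in control cells (0.829 to 1.08).

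Bmf, which is tethered to the dynein light chain until stress frees it, was at 3.26 FPKM in Meis1f/f 4-OHT and 3.001 FPKM in Meis1f/f vehicle cells, against 1.54 FPKM in control 4-OHT and 2.48 FPKM in control vehicle cells. It was lower with 4-OHT in control cells, at a ratio of 0.623 (0.512 to 0.755), and in Meis1f/f cells the interval included 1 (1.09, 0.940 to 1.26). That small Meis1f/f difference, 0.09, became -0.01 under median ratio rescaling. The genotype ratio of Bmf was 2.12 under 4-OHT (1.73 to 2.59) and 1.21 under vehicle (1.06 to 1.39).

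Bcl2l11 encodes BIM, the BH3-only protein that follows cytokine withdrawal in blood cells, in a long, an intermediate and a short form. The 3 deposited rows differed in length as these forms do: the longest exceeded the others by 168 and 258 bases, and GENCODE pairs them with proteins of 196, 140 and 110 residues. The long row was at 6.56 FPKM in Meis1f/f 4-OHT and 8.35 FPKM in Meis1f/f vehicle cells, against 3.47 FPKM in control 4-OHT and 5.59 FPKM in control vehicle cells. The intermediate row was at 2.42 FPKM in Meis1f/f 4-OHT and 7.86 FPKM in Meis1f/f vehicle cells, against 2.48 FPKM in control 4-OHT and 2.46 FPKM in control vehicle cells. The intermediate form thus stood out in the Meis1f/f vehicle library, where it held 47.0% of the gene's FPKM, against 25.9% in Meis1f/f 4-OHT, 41.7% in control 4-OHT and 30.6% in control vehicle cells. The short row was at 0.362 FPKM in Meis1f/f 4-OHT and 0.522 FPKM in Meis1f/f vehicle cells and below 0.001 FPKM in both control libraries. The rows share all but those 168 or 258 bases, so their split is less certain than their sum.

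Summed over rows, Bcl2l11 was at 9.34 FPKM in Meis1f/f 4-OHT and 16.7 FPKM in Meis1f/f vehicle cells, against 5.94 FPKM in control 4-OHT and 8.05 FPKM in control vehicle cells. It was lower with 4-OHT in both genotypes and higher in Meis1f/f than in control cells under both treatments. In mapped reads per M over its rows the 4-OHT ratio was 0.562 in Meis1f/f cells (0.521 to 0.605) and 0.736 in control cells (0.667 to 0.811). The genotype ratio was 1.58 under 4-OHT (1.42 to 1.75) and 2.06 under vehicle (1.93 to 2.21). The choice of row decided the sign of the difference of the effects, 0.25 for the long row and -0.40 for the sum.

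**Figure D2:**
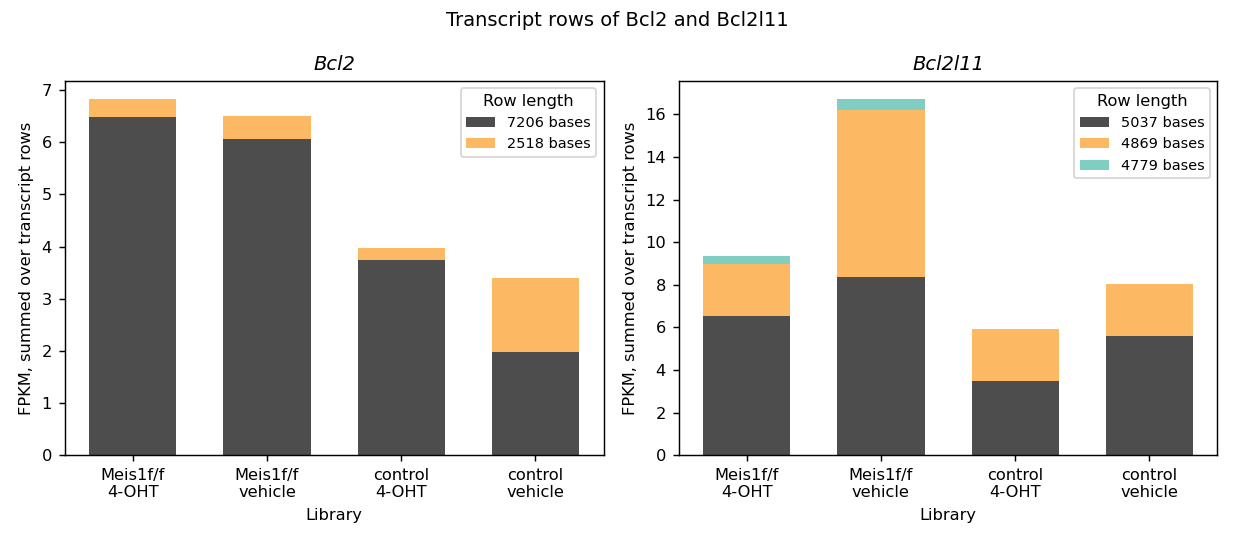
Stacked FPKM of the transcript rows of Bcl2 (left) and Bcl2l11 (right) in the 4 libraries, coloured by row length in bases. The short Bcl2 row is prominent in control vehicle (41.8%), and the intermediate Bcl2l11 row in Meis1f/f vehicle (7.86 FPKM).

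Few members passed the size rule, which counts a gene when its log2 difference is 1 or more, or -1 or less. With 4-OHT in Meis1f/f cells 0 of 9 members passed, where 3.91% of the 10922 genes at 1 FPKM or more did (1.63% higher and 2.28% lower). In control cells it was again 0 of 9, against 2.25% of all genes (1.37% higher and 0.879% lower). None of the 9 passed in the difference of the 4-OHT effects, against 5.74% of all genes (2.11% higher and 3.63% lower). Between the genotypes under 4-OHT 0 of 9 passed, against 5.33% of all genes (3.72% higher and 1.61% lower). Between the vehicle libraries 2 of 9 were higher and 0 lower, Bcl2 at 1.24 and Bcl2l1 at 1.16, against 7.95% of all genes (5.84% higher and 2.11% lower). Bcl2 no longer passed with rows summed (0.77) or with the length trend removed (0.82), and Bcl2l1 missed the rule at a pseudocount of 5 (0.99).

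By role the sizes were as follows, by the highest row unless stated. In Meis1f/f cells given 4-OHT the median was -0.53 over the 3 anti-apoptotic genes, 0.62 over the 2 effectors and 0.16 over the 4 BH3-only genes, beside 0.11 over all genes. In control cells these medians were -0.05, -0.02 and -0.26, beside 0.05. In the difference of the effects all 3 anti-apoptotic genes were below 0 (median -0.58). Both effectors were above 0 (median 0.65), beside 0.06 over all genes. With rows summed the anti-apoptotic median was -0.32, with Bcl2 at -0.11. The BH3-only median was 0.40 by the highest row and 0.21 with rows summed. Under vehicle the 3 anti-apoptotic genes were higher in Meis1f/f than in control cells (median 1.16). Both effectors were lower (median -0.46), beside -0.06 over all genes. With rows summed the anti-apoptotic median under vehicle was 0.77, and the BH3-only median was 0.01 by either measure. Under 4-OHT the medians between genotypes were 0.50, 0.19 and 0.37 for the 3 classes in the same order, beside 0.00. These comparisons share libraries and are not independent of each other.

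Scaling moved the reference point in Meis1f/f cells. Of the genes past the rule with 4-OHT there, 41.7% were higher as deposited, 24.6% after median ratio rescaling and 28.1% after upper quartile rescaling. Median ratio rescaling shifted the median of all genes by -0.12. Relative to that median as deposited, Bax, Bak1 and Bad (0.63, 0.61 and 0.71) lay above it and Bcl2l1 and Mcl1 (-0.71 and -0.53) below it.

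**Figure D3:**
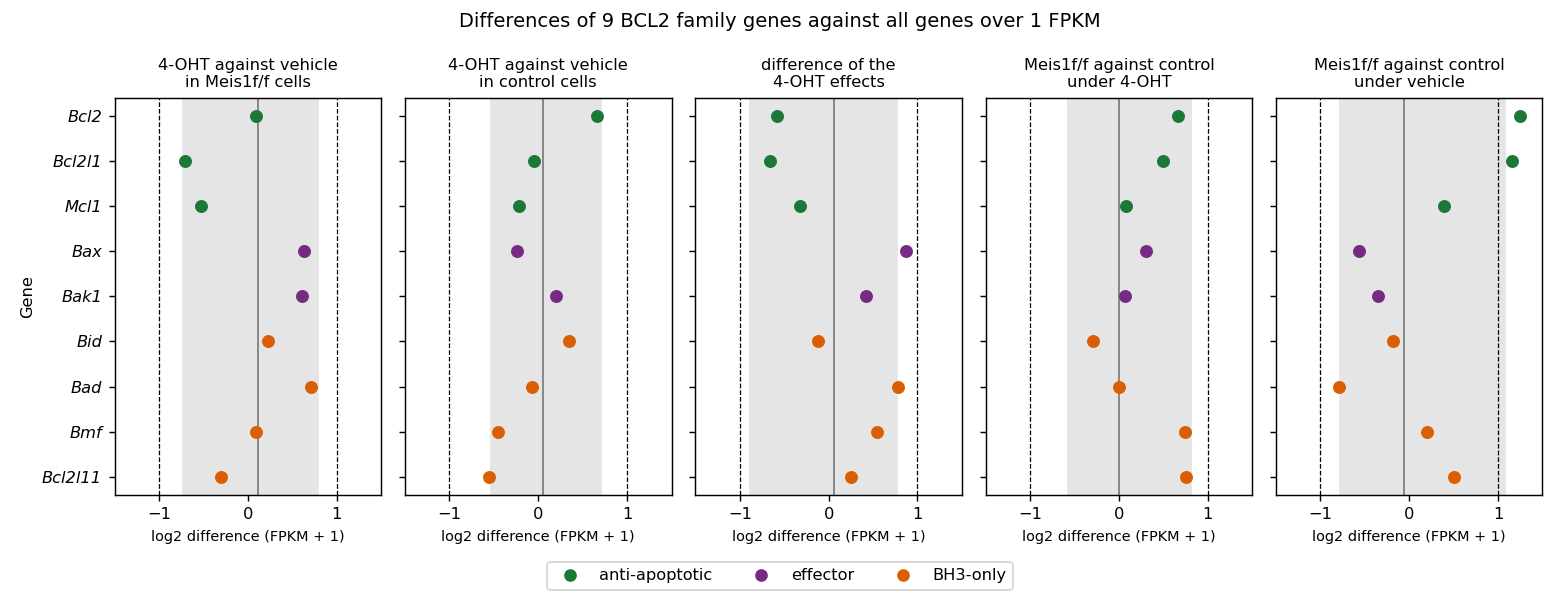
Log2 difference of each of 9 genes (points, coloured by role) in 5 comparisons, with the median (grey line) and the 5th to 95th percentile (grey band) of 10922 genes and the size rule at -1 and 1 (dashed). Bcl2 and Bcl2l1 pass the rule between the vehicle libraries, and the anti-apoptotic and effector genes lie on opposite sides in the difference of the effects.

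Transcript length went along with these differences. Over 10922 genes, Spearman's rho between length and difference came to -0.24 in the Meis1f/f 4-OHT comparison and -0.26 in the difference of the effects. Between the genotypes it was 0.03 under 4-OHT and 0.25 under vehicle, given as a description since genes of a library are not independent. Among members, the 4 shortest (Bax, Bad, Bid and Bak1, of 869 to 2002 bases) were lower in Meis1f/f than in control cells under vehicle and the 5 longest (Bcl2l1, Mcl1, Bmf, Bcl2l11 and Bcl2, of 2371 to 7206 bases) were higher. With the median of genes of like length taken out, the difference between vehicle libraries was 1.25 for Bcl2l1, 0.37 for Mcl1, -0.37 for Bax, -0.30 for Bak1 and -0.62 for Bad. For Meis1f/f cells with 4-OHT it was -0.76 for Bcl2l1, -0.50 for Mcl1, 0.47 for Bax, 0.53 for Bak1 and 0.55 for Bad. These 5 genes kept their signs, and the part of length in each value was otherwise not tested.

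**Figure D4:**
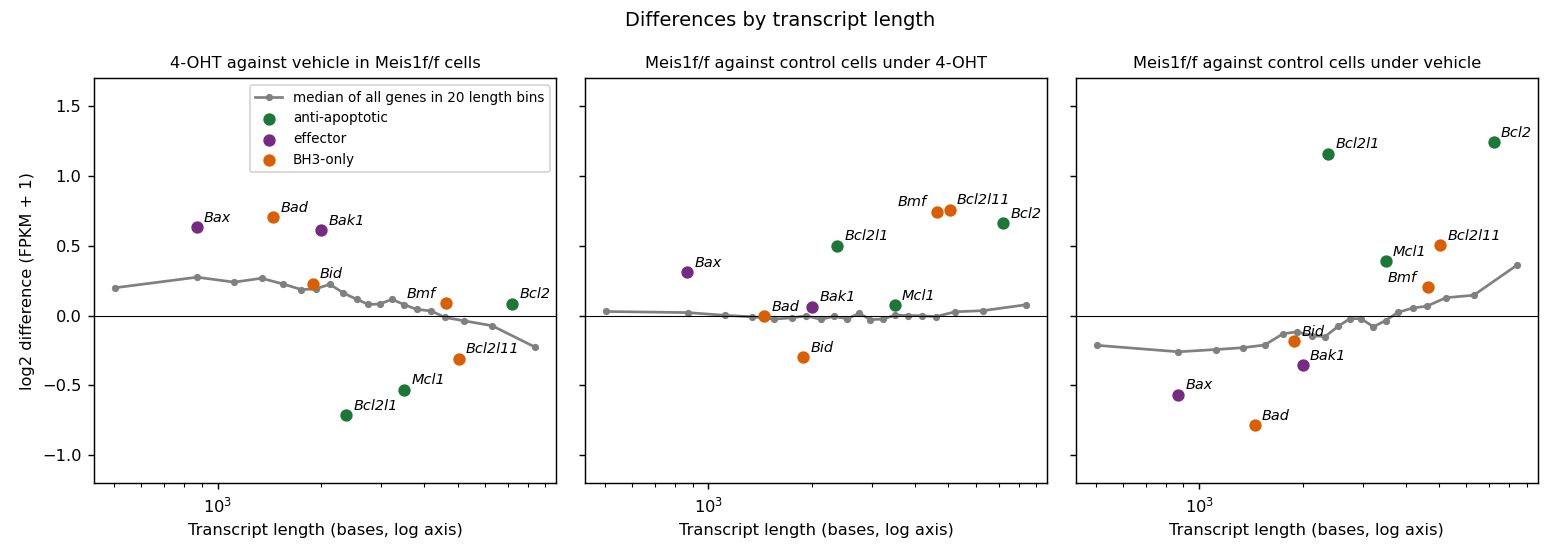
Log2 difference against transcript length (bases, log axis) for 9 genes (points, coloured by role) and for the median of all genes in 20 length bins (grey line), with 4-OHT against vehicle in Meis1f/f cells on the left and Meis1f/f against control cells under 4-OHT and under vehicle in the middle and on the right. The grey line slopes in both comparisons that use the Meis1f/f vehicle library and is near 0 in the middle panel, and Bcl2l1 lies off it in all 3.

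The rest of the family held further survival and BH3-only genes. Of 5 other anti-apoptotic genes 4 reached 1 FPKM, and Bcl2l10 was listed at 0. With 4-OHT in Meis1f/f cells all 4 were above 0, at a median of 0.37, beside -0.53 for the 3 members of that role. In control cells the median of the 4 was 0.58. In the difference of the effects 0 of the 4 were above 0, with a median of -0.21. Bcl2a1d was at 36.1 FPKM in Meis1f/f 4-OHT and 26.4 FPKM in Meis1f/f vehicle cells. In control cells it was at 22.9 FPKM with 4-OHT and 15.5 FPKM with vehicle. Bcl2a1a, an NF-kB target that encodes A1, was at 38.4 FPKM in Meis1f/f 4-OHT and 28.9 FPKM in Meis1f/f vehicle cells, against 28.4 FPKM in control 4-OHT and 13.6 FPKM in control vehicle cells. Bcl2a1b was at 43.2 FPKM in Meis1f/f 4-OHT and 34.1 FPKM in Meis1f/f vehicle cells, against 22.2 FPKM in control 4-OHT and 14.0 FPKM in control vehicle cells. These are near-identical copies between which reads can be split, so each value is uncertain; both were lowest in control vehicle cells, as Bcl2 was, and both passed the rule between the genotypes under vehicle (1.03 and 1.23). Bcl2a1a also passed with 4-OHT in control cells (1.01). Bok, a BAX-like gene, stayed under 1 FPKM.

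Among 6 further BH3-only or BH3-like genes, 5 reached 1 FPKM and Hrk did not. In the Meis1f/f 4-OHT comparison 1 of the 5 was above 0, their median being -0.75, with none past the rule. Bbc3 (PUMA), a p53 target, was at 4.95 FPKM in Meis1f/f 4-OHT and 10.5 FPKM in Meis1f/f vehicle cells, against 3.76 FPKM in control 4-OHT and 5.39 FPKM in control vehicle cells. Pmaip1 (NOXA), whose protein binds MCL-1, was at 26.1 FPKM in Meis1f/f 4-OHT and 45.5 FPKM in Meis1f/f vehicle cells, against 29.7 FPKM in control 4-OHT and 40.9 FPKM in control vehicle cells. Both were lower with 4-OHT in each genotype, without reaching the rule. Bnip3, a mitophagy receptor with a BH3-like segment and a hypoxia target, was at 41.4 FPKM in Meis1f/f 4-OHT and 69.99 FPKM in Meis1f/f vehicle cells, against 260 FPKM in control 4-OHT and 145 FPKM in control vehicle cells. It passed the rule in the difference of the effects (-1.58) and between the genotypes under 4-OHT (-2.63) and under vehicle (-1.04). Of the 3 remaining family genes over 1 FPKM none passed in that difference: Bcl2l14 was at -0.49 and Bcl2l12 at 0.24.

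Downstream of the pore, genes for released factors were higher in Meis1f/f 4-OHT than in Meis1f/f vehicle cells. All 6 of the apoptosome and release list were above 0, with a median of 0.64 beside 0.11 for all genes, and 1 passed the rule. That gene, Htra2, a protease released from mitochondria, was at 48.8 FPKM in Meis1f/f 4-OHT and 17.1 FPKM in Meis1f/f vehicle cells, against 47.4 FPKM in control 4-OHT and 33.9 FPKM in control vehicle cells. Again the Meis1f/f vehicle library was the low one. In control cells 3 of 6 were above 0, with a median of 0.12. Between the genotypes under vehicle the median was -0.83, with Endog, a mitochondrial nuclease gene, past the rule (-1.03). Under 4-OHT the median between the genotypes was -0.07, with 2 of 6 above 0. Of 7 mitochondrial partners, such as the VDAC channels, 0 passed in any comparison. In the difference of the effects Opa1 (0.48), which shapes the inner membrane, and Dnm1l (0.39), the fission GTPase, were the largest of that list, but with rows summed they were at -0.04 and 0.03.

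Caspase genes showed no common direction. None of the 6 passed in any comparison, and their median in the difference of the effects was -0.33. Casp6, an executioner, was at 22.5 FPKM in Meis1f/f 4-OHT and 38.03 FPKM in Meis1f/f vehicle cells, against 21.6 FPKM in control 4-OHT and 24.4 FPKM in control vehicle cells. Casp9, the apoptosome's initiator, had a difference of the effects of -0.43. Of 7 caspase inhibitor and nuclease genes 0 passed. Dffb, the apoptotic nuclease, had a difference of the effects of 0.71, and Birc5 (survivin) one of 0.61. In the death receptor list 0 of 7 passed, with Ripk1, a kinase of that arm, at 0.48 and the receptor gene Fas at 0.36 in the difference of the effects.

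Among genes upstream, those for regulators were mixed. In the list for MCL-1 turnover and related ubiquitin ligase adaptors 1 of 6 passed, Trib1, a pseudokinase that recruits the COP1 ligase. It was at 1.24 FPKM in Meis1f/f 4-OHT and 3.01 FPKM in Meis1f/f vehicle cells, against 1.02 FPKM in control 4-OHT and 0.725 FPKM in control vehicle cells, a difference of the effects of -1.07. Of 13 transcription factors 1 passed in that difference, Stat5a (1.06), which carries cytokine signals to Bcl2l1 and Mcl1. With its rows summed Stat5a was at 10.9 FPKM in Meis1f/f 4-OHT and 9.59 FPKM in Meis1f/f vehicle cells, against 10.3 FPKM in control 4-OHT and 6.88 FPKM in control vehicle cells, and the difference turned to -0.35. Among 10 genes for survival kinases and partner proteins 0 passed in the difference of the effects. The largest were Pim3 (0.75) and Pim1 (-0.64), kinases that phosphorylate BAD. Pim3 was at 26.6 FPKM in Meis1f/f 4-OHT and 24.97 FPKM in Meis1f/f vehicle cells, against 8.92 FPKM in control 4-OHT and 14.8 FPKM in control vehicle cells.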

How the data were processed

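RNA libraries of 4 groups, 1 each, were compared. Bowtie and mm8 are named in the submitters' processing notes; their versions, the quantifying tool, its annotation and the read length are not stated there. The FPKM values were made by the authors per transcript, per the file headers, and so was the coverage column, a signal of mean depth per base. Coordinates are as deposited.

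Of all transcript rows, 394 lacked OK status in some library and were dropped; no member row was among them, and a symbol was its row with the highest mean. Differences are of log2(FPKM + 1), which understates those of low genes, over 10922 symbols at 1 FPKM or more in at least 1 library; a difference of at least 1 in size was counted. With 1 library per group there was no test.

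Depth was estimated from coverage over FPKM, constant within a file, and the value of 1 read, 44.8 to 45.3 bases (window of 20 to 70 bases, which may itself set it). Reads so estimated gave 95% exact Clopper-Pearson intervals of ratios, in Python 3.11.15 with scipy 1.17.1. They cover counting error only; PCR copies are not independent molecules. The interval code was run on simulated counts with counting error alone, at the estimated depths. That run cannot test the depth estimate or other sources of spread. BH3 codons were read from GENCODE transcripts and promoters from RefSeq, both on GRCm38; no coordinates were carried between builds.

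Members and lists were chosen with earlier results of these data known. The text names all members, Meis1, and in each list the genes past the size rule in Meis1f/f cells or in the difference of the effects, or else the largest ones in that difference. Named outside that rule, after their values were seen, were Bbc3, Pmaip1, Endog and Bcl2a1d, and the genes under 1 FPKM in short lists. The markers named are those fixed for each cell type. Alternatives were other pseudocounts, floors, rescalings, summed rows, a length correction, a lower size rule and another window. Rows of any status and mapped reads per M over all rows were added after the data were seen.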

Additional observations from a re-analysis of the deposited data

Results flagged for a closer look

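Bax was singled out because 4-OHT went with opposite directions in the genotypes: relative to vehicle, its level was 1.56 times as high in Meis1f/f cells and 0.844 times as high in control cells, with counting intervals of 1.46 to 1.67 and 0.790 to 0.901. The difference between these effects was not tested, since each rests on 1 library per group. With the median of genes of like length taken out, that difference was 0.66 for Bax, smaller in size than -0.75 for Bcl2l1.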

How the results depend on the processing

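No paired analysis was possible because each group has 1 library. Counts below follow the order 4-OHT in Meis1f/f cells, 4-OHT in control cells, difference of the effects, genotypes under 4-OHT, genotypes under vehicle. A pseudocount of 0.1 gave 856, 682, 1148, 984 and 1450 genes past the size rule, and 1 member (Bmf) between the genotypes under 4-OHT. A pseudocount of 5 gave 110, 33, 162, 201 and 292 genes, and 0 members under vehicle. A floor of 5 FPKM gave 159 genes in control cells, 402 in the difference of the effects and 368 between the genotypes under 4-OHT. Under vehicle 1 member passed with rows summed and 1 with the length trend removed, Bcl2l1 both times. A size rule of 1.5-fold gave 2158, 1341, 2405, 1379 and 2769 genes and 4, 1, 3 and 3 members in the first 4 comparisons. With rows summed the Mcl1 share in control vehicle cells was 84.0%. The remaining counts and shares, with no floor, under both rescalings and with rows of any status among them, stayed within 1.5 times the reported count or within the counting interval of the share. No called member difference changed sign. Depth limits Bik most.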

Other observations

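Bcl2, whose highest row had the widest range of the members, was set beside 8289 other genes at 5 FPKM or more in at least 1 library by the Euclidean distance between mean-centred log2(FPKM + 1) profiles over the 4 libraries. The 3 nearest were H2-Ab1 (distance 0.12), H2-Aa (0.13) and Cyp4f18 (0.13), and the median distance of the genes compared from a flat profile was 0.43. H2-Ab1 was at 112 FPKM in Meis1f/f 4-OHT and 102 FPKM in Meis1f/f vehicle cells, against 72.7 FPKM in control 4-OHT and 47.7 FPKM in control vehicle cells. H2-Ab1 and H2-Aa belong to the dendritic marker list whose sums are given with Bcl2. Over 4 libraries many genes can share an order, so the likeness is a description. It rests on the control vehicle value of that row, 1.98 FPKM, against 3.40 FPKM with rows summed, by which Bcl2 would not have the widest range.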
